A study of Ovis aries with 3 samples.

Results

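The miR-148 and miR-152 miRNAs of sheep form a seed family, that is, a group of miRNAs that share the bases through which a miRNA first pairs with its target mRNAs. Members were taken by name, as the rows of the count files beginning with oar-miR-148 or named oar-miR-152. Of 822 miRNA entries, 2 met this rule, oar-miR-148a and oar-miR-152, both among the 146 known sheep entries. Another entry with the same seed, novel_mir_90, was found by sequence among the 676 predicted entries and is described beside them. The samples were intestinal mucosal epithelial tissue of Small tailed Han sheep ewes aged 11 months, taken in 3 segments, which are duodenum (DU), cecum (CE) and proximal colon (CO). RNA of the same 3 ewes was pooled within each segment before sequencing, which gave 1 library per segment. With no replicate library, every interval and test below covers the counting of reads only. No difference between libraries could be set against the spread between animals. PCR copies of a molecule are also counted as separate reads. The study also measured oar-miR-148a by quantitative PCR, with biological replicates of each segment. It did not name this miRNA among those whose trend differed from its sequencing. Those measurements were not analysed here.

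A mature miRNA guides the Argonaute complex to mRNAs that pair with its seed, bases 2 to 8 from the 5' end, and lowers their stability or translation. Since the seed sets most of the pairing, members of a seed family can share many targets, and DNMT1, the maintenance DNA methyltransferase, is a well-known target of the miR-148 and miR-152 family. miR-148a is abundant in liver, stomach and intestine of mammals. miR-152 lies in an intron of COPZ2, the gene of a coatomer subunit, in mammals.

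The mature sequences of the 3 entries are shown because they define the family and because they set how well their reads can be told apart. They are printed 5' to 3' as in the count files, with T for U and with the seed in capitals.
oar-miR-148a: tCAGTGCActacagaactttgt
novel_mir_90: tCAGTGCAtcacagaactttgt
oar-miR-152: tCAGTGCAtgacagaacttgg
oar-miR-148a and novel_mir_90 are 22 nt long and oar-miR-152 is 21 nt long. The sequence of novel_mir_90 is the one listed for cattle as bta-miR-148b in the supplement of the study. All 3 share positions 1 to 8 and, behind a variable pair of bases, the 9 bases of positions 11 to 19. Counted from 1 at the 5' end, oar-miR-148a differs from novel_mir_90 by C9T and T10C (20 of 22 positions identical). It differs from oar-miR-152 by C9T, T10G and T20G over the 21 positions that both have (18 identical). novel_mir_90 differs from oar-miR-152 by C10G and T20G (19 of 21 identical). The members are therefore separated by 2 or 3 bases in the middle and near the 3' end. The authors required at least 16 bases of the mature miRNA without mismatch, and any such stretch covers position 10, where all 3 sequences differ.

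The 7 seed bases CAGTGCA occurred at positions 2 to 8 in 3 of the 822 entries and at another position in 6 more. Of these 6, the known entries oar-miR-17-5p, oar-miR-106a and oar-miR-106b hold them from position 12 on, outside their own seed. No entry contained, or was contained in, the sequence of any of the 3 seed entries, so there was no nested entry to add to them. Nor did any entry contain, or lie within, the passenger (5p) arm sequences that the study lists as chi-miR-148a-5p, cgr-miR-148b-5p and cgr-miR-152-5p. These arms were not analysed further. In the RefSeq gene table of the later assembly ARS-UI_Ramb_v3.0, MIR152 overlaps COPZ2, between NFE2L1 and CDK5RAP3, and MIR148A overlaps no other gene. The assembly differs from the one used by the authors, so no coordinates are given.

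The files counted 14462675 reads in the duodenum, 15072945 in the cecum and 13769740 in the colon. Levels are given as normalized reads, the count per 1000000 clean reads mapped to the genome. All 4 epithelial markers had reads, and oar-miR-200a, oar-miR-200b, oar-miR-200c and oar-miR-194 summed to 28477, 20415 and 33447 normalized reads in duodenum, cecum and colon. The 6 markers of muscle and connective tissue also had reads in every library, although the labels name epithelial tissue. They summed to 288377, 441458 and 409500 normalized reads, of which oar-miR-143, a smooth muscle miRNA, gave 275281, 429102 and 399239. The 2 lymphoid markers, oar-miR-150 and oar-miR-181a, summed to 1342, 1003 and 994 normalized reads. No marker was at 0.

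oar-miR-148a was among the most abundant miRNAs of each segment, and its level was highest in the duodenum, intermediate in the colon and lowest in the cecum. It had 886563 reads in the duodenum, 357853 in the cecum and 564592 in the colon. These were 52980 normalized reads in the duodenum (exact Poisson 95% interval 52870 to 53091), 21043 in the cecum (20974 to 21112) and 34078 in the colon (33990 to 34168). No 2 of these intervals overlapped, but at such read numbers intervals for counting alone are narrow. The share of all entries with intervals apart was not computed. In the duodenum it ranked 3rd among the known sheep miRNAs, behind oar-miR-143 and oar-miR-21, and 5th among all entries. In the cecum it ranked 8th among the known miRNAs, and those with more reads were oar-miR-143, oar-miR-21, oar-miR-26a, oar-miR-10a, oar-let-7a, oar-miR-10b and oar-let-7f. In the colon it again ranked 3rd, among known miRNAs and among all entries.

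oar-miR-152 was a minor member of the family and had another order of segments, with its highest level in the cecum. It had 10890 reads in the duodenum, 13616 in the cecum and 8444 in the colon. The normalized reads were 651 in the duodenum (exact Poisson 95% interval 639 to 663), 801 in the cecum (787 to 814) and 510 in the colon (499 to 521). The cecum was thus highest and the colon lowest. However, the order of duodenum and colon turned when oar-miR-143 was left out of the library totals. The log2 ratio of CO to DU was then 0.10 instead of -0.35. Among the known miRNAs, oar-miR-152 ranked 33rd, 31st and 35th in duodenum, cecum and colon.

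novel_mir_90, the entry with the miR-148b sequence, had its lowest level in the cecum, like oar-miR-148a. Its level was somewhat above that of oar-miR-152 in duodenum and colon and below it in the cecum. Its reads numbered 12789, 7999 and 10879 in duodenum, cecum and colon. They corresponded to 764 normalized reads in the duodenum (exact Poisson 95% interval 751 to 778), 470 in the cecum (460 to 481) and 657 in the colon (644 to 669). The duodenum was highest and the cecum lowest, as for oar-miR-148a, but the order of duodenum and colon turned when oar-miR-143 was left out of the library totals (log2 ratio of CO to DU -0.22 and 0.23).

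**Figure D1:**
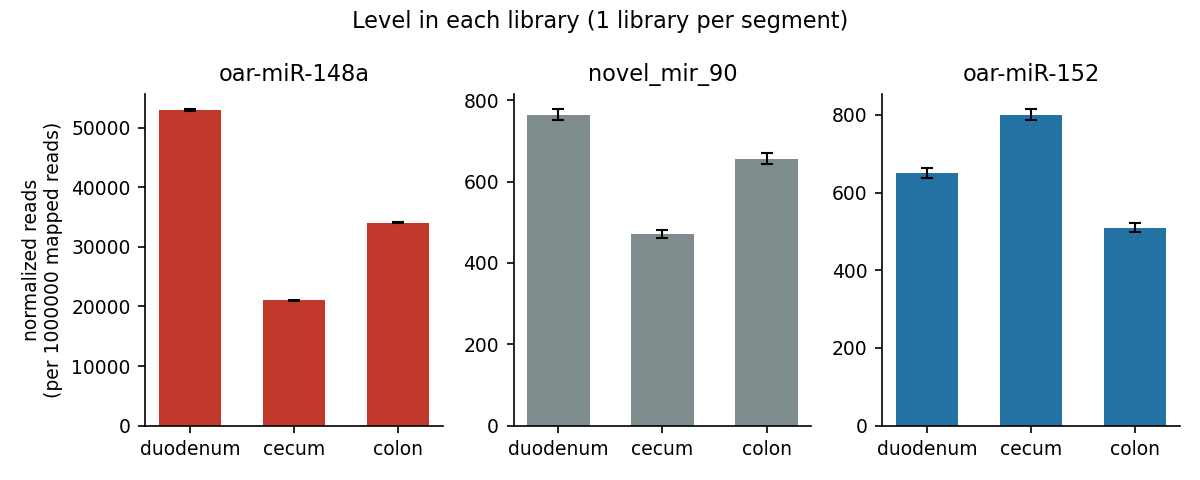
Normalized reads (per 1000000 mapped reads, linear axis from 0, a scale of its own in each panel) of the 3 seed entries in the duodenum, cecum and colon libraries, with exact Poisson 95% intervals as bars. oar-miR-148a fills a range up to 52980 and is lowest in the cecum (21043), as is novel_mir_90 (470), whereas oar-miR-152 is highest there (801).

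Summed over the 2 named members, the family had 53631 normalized reads in the duodenum, 21844 in the cecum and 34588 in the colon. This was 5.36% of the mapped reads in the duodenum (Wilson 95% interval 5.35 to 5.37%), 2.18% in the cecum (2.18 to 2.19%) and 3.46% in the colon (3.45 to 3.47%). When all 822 entries were grouped by their own bases 2 to 8, which gave 535 seeds, CAGTGCA ranked 5th in the duodenum, 8th in the cecum and 4th in the colon. In the duodenum, the seeds ahead of it were led by oar-miR-143, oar-let-7a, novel_mir_245 and oar-miR-21.

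Almost all reads of the family came from oar-miR-148a. Its share of the 2 named members was 98.8% in the duodenum (Wilson 95% interval 98.76 to 98.81%), 96.3% in the cecum (96.27 to 96.40%) and 98.5% in the colon (98.50 to 98.56%). oar-miR-152 took the remaining 1.21%, 3.67% and 1.47%. With novel_mir_90 included, oar-miR-148a held 97.4%, 94.3% and 96.7% of the seed group, novel_mir_90 1.41%, 2.11% and 1.86%, and oar-miR-152 1.20%, 3.59% and 1.45%. The cecum was therefore the segment in which the minor members took the largest share of the seed, with oar-miR-152 ahead of novel_mir_90 in that library only.

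Ratios between members within a library do not depend on how the libraries are scaled. There were 81.4 reads of oar-miR-148a for each read of oar-miR-152 in the duodenum, 26.3 in the cecum and 66.9 in the colon. The ratio was 3.10 times lower in the cecum than in the duodenum (odds ratio 0.323, 95% interval 0.315 to 0.331) and 2.54 times lower in the cecum than in the colon (0.393, 0.382 to 0.404). Between the CO and DU libraries it differed by 1.22 times (0.821, 0.798 to 0.845). For each read of novel_mir_90, there were 69.3, 44.7 and 51.9 reads of oar-miR-148a in duodenum, cecum and colon. novel_mir_90 had 1.17 and 1.29 reads for each read of oar-miR-152 in duodenum and colon but 0.588 in the cecum. The odds ratio of novel_mir_90 to oar-miR-152 was 0.500 for CE against DU (0.482 to 0.519) and 1.10 for CO against DU (1.06 to 1.14). The cecum was the library that stood apart in both ratios to oar-miR-152.

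**Figure D2:**
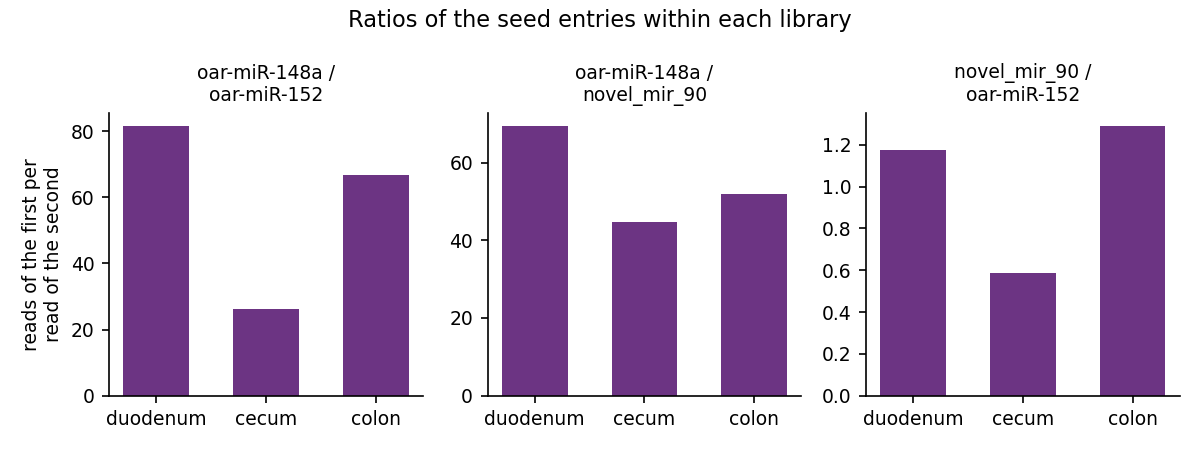
Reads of one seed entry per read of another within the duodenum, cecum and colon libraries (linear axes from 0, a scale of its own in each panel). The ratio of oar-miR-148a to oar-miR-152 is 81.4, 26.3 and 66.9, and that of novel_mir_90 to oar-miR-152 drops below 1 in the cecum alone (0.588).

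Libraries were compared in pairs, as the study did, to ask which miRNAs differ between segments. An entry was called when its Bonferroni-corrected p-value in the exact Audic-Claverie test was under 0.01 and its fold change at least 2, and the test was run on entries that reached 1 normalized read in one of the libraries. The test compares the 2 libraries and not the segments of several animals.

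Between the cecum and the duodenum, oar-miR-148a fell and oar-miR-152 did not pass the fold change. oar-miR-148a had 21043 normalized reads in the cecum and 52980 in the duodenum, 2.52 times lower in the cecum, with a log2 ratio of -1.33 (exact 95% interval -1.34 to -1.33). Its corrected p-value was too small for a double-precision number, and it was called. Of 93 known entries tested, it had the lowest log2 ratio, and with oar-miR-194 it was 1 of 2 called as lower in the cecum. The members called were thus 1 of 2, against 127 of 348 entries of any kind (36.5%) and 11 of the 93 known ones (11.8%). In the direction of oar-miR-148a, lower in the cecum, the shares called were 24.4% of all entries and 2.15% of the known ones. Levels of a miRNA in bulk tissue cannot tell fewer cells that express it from less of it per cell.

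oar-miR-152 was 1.23 times higher in the cecum than in the duodenum, with a log2 ratio of 0.30 (exact 95% interval 0.26 to 0.34, corrected p = 3.07e-56, exact Audic-Claverie test), below the fold change required. This ratio was close to the median of the known entries, 0.27. novel_mir_90 was 1.63 times lower in the cecum, with a log2 ratio of -0.70 (-0.74 to -0.66), and was not called either. In absolute terms, oar-miR-148a differed by -31937 normalized reads between the CE and DU libraries, and oar-miR-152 by 150, or 0.469% of the size of that difference. The sum of the family followed oar-miR-148a, with a log2 ratio of -1.30 (-1.30 to -1.29).

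The call of oar-miR-148a depended on the scaling of the libraries. With oar-miR-143 left out of the library totals, a setting chosen after the data were seen, every log2 ratio of CE to DU was raised by 0.37, that of oar-miR-148a became -0.97 and the call was lost. The call was also lost in edgeR's exact test when a biological coefficient of variation of 0.2 or 0.4 was assumed. A measure free of the scaling is the distance to the median of all 262 entries that had 10 or more reads in each, which was -0.20. On this log2 scale, oar-miR-148a lay 1.13 below the median (17th from the lowest), novel_mir_90 0.50 below it and oar-miR-152 0.50 above it. This distance depends on the entries taken as reference. From the median of the 93 known entries (0.27), the distances of oar-miR-148a, novel_mir_90 and oar-miR-152 were -1.60, -0.97 and 0.03.

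Between the colon and the duodenum, 0 of the 2 members were called, against 123 of 363 entries (33.9%) and 6 of 94 known ones (6.38%). oar-miR-148a was 1.56 times lower in the colon, with a log2 ratio of -0.64 (exact 95% interval -0.64 to -0.63). Of the 94 known entries, 5 had a lower ratio. oar-miR-152 was 1.28 times lower in the colon, with a log2 ratio of -0.35 (-0.39 to -0.31, corrected p = 1.15e-61, exact Audic-Claverie test). Its direction turned to 0.10 with oar-miR-143 left out of the totals, which raised every ratio of CO to DU by 0.45. Against the median of the 267 entries that had 10 or more reads in each (-0.11), oar-miR-152 lay 0.24 lower and oar-miR-148a 0.53 lower. novel_mir_90 had a log2 ratio of -0.22 (-0.26 to -0.18) and lay 0.11 below that median. Its ratio also turned, to 0.23, with oar-miR-143 left out of the totals, whereas that of oar-miR-148a kept its sign (-0.19). From the median of the 94 known entries (0.22), the distances of oar-miR-148a, novel_mir_90 and oar-miR-152 were -0.86, -0.44 and -0.57.

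Within the large intestine, oar-miR-148a and oar-miR-152 differed in opposite directions, and neither reached a fold change of 2. The members called were 0 of 2, against 74 of 326 entries (22.7%) and 2 of 94 known ones (2.13%). oar-miR-148a was 1.62 times lower in the cecum than in the colon, with a log2 ratio of -0.70 (exact 95% interval -0.70 to -0.69), and 3 of the 94 known entries had a lower one. oar-miR-152 was 1.57 times higher in the cecum than in the colon, with a log2 ratio of 0.65 (0.61 to 0.69, corrected p = 5.24e-237, exact Audic-Claverie test), and 7 of the known entries had a higher one. novel_mir_90 was 1.40 times lower in the cecum, with a log2 ratio of -0.48 (-0.52 to -0.44). Both directions held for oar-miR-148a and oar-miR-152 under every alternative tried for this pair of libraries. The largest shift of the log2 ratios among these was only -0.09, with the sum of the counts, too small to turn either direction. Against the median of the 259 entries that had 10 or more reads in each (-0.04), oar-miR-148a lay 0.66 below and oar-miR-152 0.69 above. The 3 comparisons share libraries, so they are not independent of each other.

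**Figure D3:**
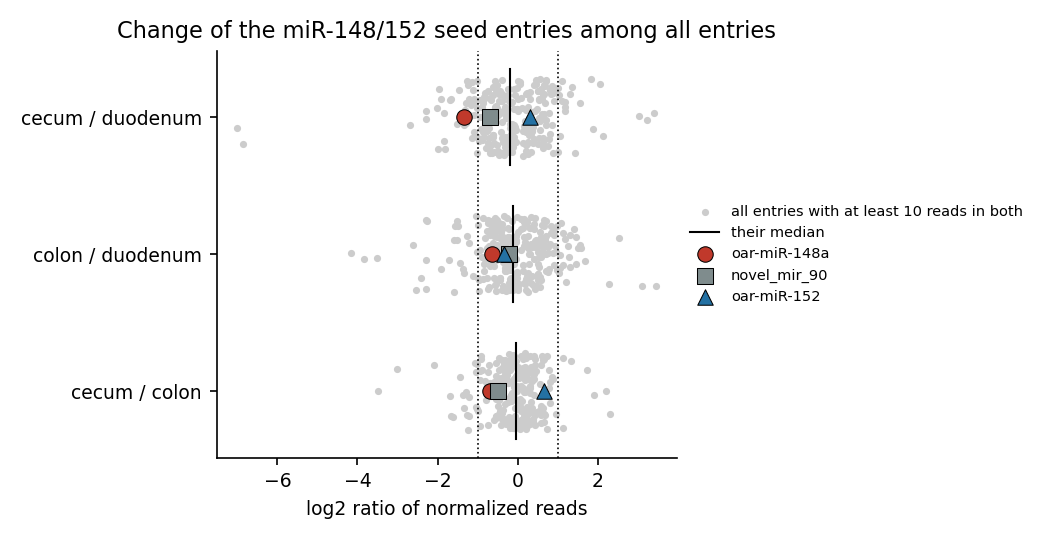
Log2 ratios of normalized reads for 3 pairs of libraries, with each entry of at least 10 reads in both libraries as a grey point (spread vertically for display), their median as a black line and dotted lines at a fold change of 2. oar-miR-148a lies left of the median in each pair and beyond the dotted line for cecum against duodenum (-1.33), and oar-miR-152 lies right of it in both pairs with the cecum (0.30 and 0.65).

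The marker miRNAs of other cell types also differed between the libraries. Summed over the epithelial list, the log2 ratio was -0.48 for CE to DU, 0.23 for CO to DU and -0.71 for CE to CO. All 4 of its members were lower in the cecum than in either other segment, but against the duodenum this depended on the scaling. oar-miR-200b had a log2 ratio of CE to DU of only -0.02. Dividing by all clean reads raised every such ratio by 0.08, enough to turn it. Leaving oar-miR-143 out of the totals raised them by 0.37, enough to turn oar-miR-200c (-0.30) too. Among the alternative totals, only the sum of the counts shifted these ratios down (-0.04). Between colon and duodenum, however, the 3 miR-200 members were higher and oar-miR-194 lower in the colon (-0.59). By quantitative PCR, the study found oar-miR-200b relatively high in the duodenum, unlike in its sequencing. For the muscle and connective tissue list the sum had log2 ratios of 0.61, 0.51 and 0.11, but oar-miR-143 alone gave 95.5% to 97.5% of it. Of the 6 members, 3 were higher and 3 lower than in the duodenum, both in the cecum and in the colon. The lower ones were oar-miR-199a-3p, oar-miR-218a and oar-miR-99a. This split also depended on the scaling. With oar-miR-143 left out of the totals, oar-miR-199a-3p (-0.23) and oar-miR-99a (-0.32) turned for CE to DU. For CO to DU that setting raised every ratio by 0.45, which turned oar-miR-99a (-0.44). For the lymphoid list the ratios were -0.42, -0.43 and 0.01. Set against the summed epithelial markers of the same library, oar-miR-148a had 1.86 reads for each of their reads in the duodenum, 1.03 in the cecum and 1.02 in the colon. On this scale, the cecum and the colon were close to each other and the duodenum stood above both. The duodenum also stood above both against each of the 3 miR-200 members alone. In duodenum, cecum and colon the values were 7.84, 4.11 and 3.53 against oar-miR-200a. They were 11.9, 4.79 and 3.86 against oar-miR-200b, and 6.53, 3.19 and 3.84 against oar-miR-200c. Only oar-miR-194 changed this pattern, with values of 5.78, 4.89 and 5.61 and the colon close to the duodenum. Its own log2 ratios of CE to DU (-1.09) and CO to DU (-0.59) were near those of oar-miR-148a (-1.33 and -0.64), so ratios between them vary little. Set against the same list, oar-miR-152 had 0.0229, 0.0392 and 0.0152 reads in duodenum, cecum and colon, again highest in the cecum. The part of cell composition in these differences was not tested.

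The known miRNAs with profiles most like those of the members were found from the log2 ratios of CE to DU and CO to DU, as the Euclidean distance among the known entries with at least 10 reads in all 3 libraries. These are distances over 3 libraries and carry no test. Closest to oar-miR-148a was oar-miR-194, a miRNA of intestinal epithelium and liver, at a distance of 0.25, with 9162, 4306 and 6071 normalized reads in duodenum, cecum and colon. Next came oar-miR-150, a lymphocyte miRNA (0.39), oar-miR-29b (0.60), oar-miR-29a (0.63) and oar-miR-26b (0.64). In this order of 93 entries, oar-miR-152 was 39th, at a distance of 1.66. The order of segments of oar-miR-148a, with the duodenum highest and the cecum lowest, was found in 17 of 94 known entries (18.1%).

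Closest to oar-miR-152 were oar-miR-30b (distance 0.09, with 131, 156 and 108 normalized reads), oar-miR-655-3p (0.13), oar-miR-27a (0.21), oar-miR-376c-3p (0.24) and oar-miR-136 (0.32). Of these, oar-miR-655-3p and oar-miR-376c-3p had fewer than 7 normalized reads in each library, so their ratios were less precise. In the order of likeness to oar-miR-152, oar-miR-148a was 88th of 93. The order of segments of oar-miR-152, with the cecum highest and the colon lowest, was found in 11 of 94 known entries (11.7%). The profile of novel_mir_90 was closest to those of oar-miR-191 (0.13), oar-let-7d (0.17) and oar-let-7a (0.23), and lay at 0.76 from oar-miR-148a and 1.01 from oar-miR-152. Neither oar-miR-148a nor oar-miR-152 was among the 5 nearest of another seed entry. Only known entries could be listed, so novel_mir_90 could not appear.

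**Figure D4:**
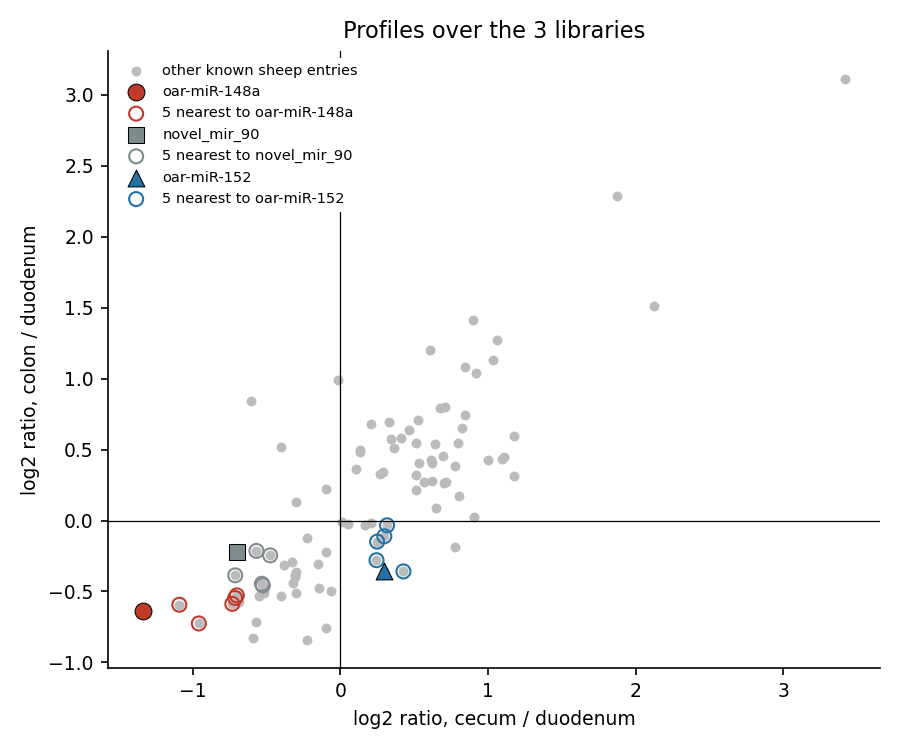
Log2 ratio of cecum to duodenum (horizontal) against colon to duodenum (vertical) for the known sheep entries with at least 10 reads in all 3 libraries and for novel_mir_90, with open circles around the 5 entries nearest to each seed entry. oar-miR-148a is the point farthest to the left (-1.33), beyond oar-miR-194, whereas oar-miR-152 lies right of 0 (0.30) and below 0 (-0.35, or 0.10 with oar-miR-143 left out of the totals).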

How the data were processed

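Small RNA libraries of the duodenum, cecum and colon were made by the authors from RNA pooled over 3 ewes and sequenced at 1 library per segment. Adapter, low-quality and polyA reads and reads under 18 nt were removed, clean reads were mapped to Oar_v4.0 with SOAP, known miRNAs were identified by BLAST against miRBase, and others were predicted with miReap. Bowtie is named in the submitters' processing notes without a role. The authors deposited raw read counts per miRNA entry, without normalization.

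Here, counts were divided by the clean reads mapped to the genome, as the study gives them, per 1000000. The formula in the methods of the study divides by all clean reads instead. With that denominator, 96 entries were called between CE and DU, 101 between CO and DU and 67 between CE and CO, against 127, 123 and 74 here, and oar-miR-148a was still the one member called (log2 ratio of CE to DU -1.25). The reads counted in the files amounted to 83.1% to 88.6% of the number of reads mapped to the genome. A count of 3 reads corresponded to 0.176 to 0.181 normalized reads. Pairs of libraries were compared with the Audic-Claverie test of the study (2 times the smaller tail, Bonferroni correction), written with scipy 1.17.1. The code was tested on simulated data, with a pass required only where counts varied by the sampling of reads alone. A normalized value of 0 was replaced by 0.01. The quasi-likelihood test of edgeR was not used, since 1 library per segment leaves no estimate of spread. Alternatives used edgeR 4.0.16 and DESeq2 1.42.0. Named miRNAs were the members, entries with their seed, markers and the 5 known entries nearest in profile to each, and others that ranked beside them, which were named after their values were seen. The members, lists and rules were chosen with earlier results of these data known.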

Additional observations from a re-analysis of the deposited data

How the results depend on the processing

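No paired analysis was possible because each segment has 1 pooled library. Under the 5 alternatives that change the library size, 28 of 30 log2 ratios of oar-miR-148a and oar-miR-152 kept their direction and their side of the thresholds. The 6 other alternatives leave these ratios almost unchanged, so they say nothing of ratios under a fold change of 2. For oar-miR-148a between CE and DU, the call was lost with the totals without oar-miR-143 (log2 ratio -0.97) and in edgeR's exact test with an assumed coefficient of variation of 0.2 or 0.4 (ratio -1.33 in both). For oar-miR-152 between CO and DU, the ratio reversed to 0.10 without oar-miR-143 in the totals. oar-miR-148a ranged from -1.37 to -0.97 (CE to DU), -0.64 to -0.19 (CO to DU) and -0.79 to -0.64 (CE to CO). The share of every seed entry rests on counting only, and no alternative tried here addresses the spread between animals. The quantitative PCR of the study, which included oar-miR-148a and had biological replicates, was not among these alternatives. Adding nested entries gave no other value, since there were none.

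The family sum had log2 ratios of CE to DU, CO to DU and CE to CO of -1.22, -0.53 and -0.69 with all clean reads, -1.33, -0.58 and -0.76 with the sum of the counts, -1.17, -0.48 and -0.70 with TMM, -1.20, -0.59 and -0.61 with DESeq2 size factors, and -0.93, -0.19 and -0.75 with the sum of the counts without oar-miR-143. The family took 6.21%, 2.46% and 4.16% of the sum of the counts in duodenum, cecum and colon, 3.26%, 1.40% and 2.26% of all clean reads, and 8.17%, 2.79% and 4.60% of the reads of known sheep entries. With every entry of the seed, oar-miR-148a held 97.4%, 94.3% and 96.7% of the family. Entries called numbered 76 between CE and DU with a coefficient of variation of 0.2, and 38, 40 and 31 in the 3 comparisons with 0.4. With at least 10 reads in both libraries they numbered 48, 35 and 15, against 127, 123 and 74 in the main setting. That requirement drops entries with few or no reads in one library, which the shares called given above include.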
